A study of Mus musculus with 9 samples.

Results

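The 9 genes described here carry the signal of insulin and insulin-like growth factor 1 (IGF1) into the cell: Igf1, Insr, Igf1r, Irs1, Irs2, Pik3r1, Akt1, Akt2 and Gsk3b. They were taken by gene symbol from the authors' table of 54513 genes. All 9 were among the 18690 genes with enough reads to be tested. Polyadenylated RNA of mouse tissue labelled as hippocampal was sequenced in 9 libraries from 3 groups of 3 mice. Mice of the Trp group ate a high-fat diet with tryptophan added at 0.5% by weight. Mice of the IPA group ate the high-fat diet and received indole-3-propionic acid, a product that gut bacteria make from tryptophan, by gavage each day at 100 mg per kg body weight. Mice of the HFD group had the high-fat diet alone. All 3 groups were kept on their diets for 12 weeks, and none of the groups ate ordinary chow. The labels used here give no strain, sex or age. They pair each sample with a column code of the table (HOB for Trp, HEB for IPA and WTB for HFD) and leave the codes unexplained, so the groups are named as the labels name them.

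Insulin and IGF1 bind tyrosine kinase receptors at the cell surface, and the receptors then phosphorylate the adaptor proteins IRS1 and IRS2. The adaptors recruit PI3-kinase, whose lipid product brings the kinase AKT to the membrane, and active AKT phosphorylates and restrains GSK3 and the FOXO transcription factors. In the hippocampus the pathway is known for its part in synaptic plasticity, neuronal survival and memory, and high-fat feeding is widely used as a model of insulin resistance. The amount of a transcript says nothing of the phosphorylation through which this pathway works.

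Total counts ran from 40621084 to 50938746 per library. The markers of dentate granule cells (10 genes) and of CA pyramidal cells (10 genes) were detected throughout. They summed to 204 to 300 and 564 to 679 CPM (counts scaled to library size). The granule cell sums hide wider swings in scarce markers. Dsp had 8.40 CPM in Trp 1 but 0.182 CPM in HFD 2, while the abundant Stxbp6 ran over 54.5 to 80.7 CPM. Mean log2 CPM of the granule cell list was highest in HFD 3 (4.44) and Trp 1 (4.42), and lowest in Trp 3 (2.99) and HFD 2 (3.14). For the CA list it was highest in HFD 3 (4.63) and lowest in IPA 3 (3.58). The cause of these differences, which cut across the groups, was not tested. The 12 markers of striatal projection neurons summed to 839 to 3589 CPM, so the libraries also held transcripts typical of neighbouring tissue. HFD 3 stood apart from the other libraries, at -58.3 on the first principal component (22.2% of the variance) against -17.0 to 29.4 for the other 8. It had the lowest striatal sum, 839 CPM, and the highest sum of thalamus and habenula markers, 588 CPM against 182 to 352 CPM elsewhere. Differences from HFD that lean on HFD 3 are given for the members with and without it.

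No member of the pathway passed in any comparison, and the members that came nearest were Igf1, Irs1 and Pik3r1. Igf1 and Irs1 had lower CPM in each Trp and each IPA library than in every HFD library, and Pik3r1 had higher CPM in each of them. Of all tested genes, 3.08% were lower in this way and 2.72% higher. By the quasi-likelihood test of edgeR, with p-values adjusted over all tested genes by the Benjamini-Hochberg method, 0 of 9 members passed at adjusted p under 0.05 for Trp against HFD, where 0.342% of all tested genes passed. The count was also 0 of 9 for IPA against HFD (0.00535% of all genes) and 0 of 9 for Trp against IPA (0%). At an unadjusted p under 0.05 there were 3 of 9 members for Trp against HFD, beside 11.3% of all genes, and 3 of 9 for IPA against HFD, beside 10.4%. For Trp against IPA there were 0 of 9, beside 4.49%. DESeq2 also passed 0 of 9 in each comparison, and limma on log2 FPKM passed 0 of the 8 members it could test. Comparisons of Trp and of IPA with HFD share the HFD libraries, so they are not independent of each other. In bulk tissue, fewer cells of a type and less RNA per cell cannot be told apart.

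**Figure D1:**
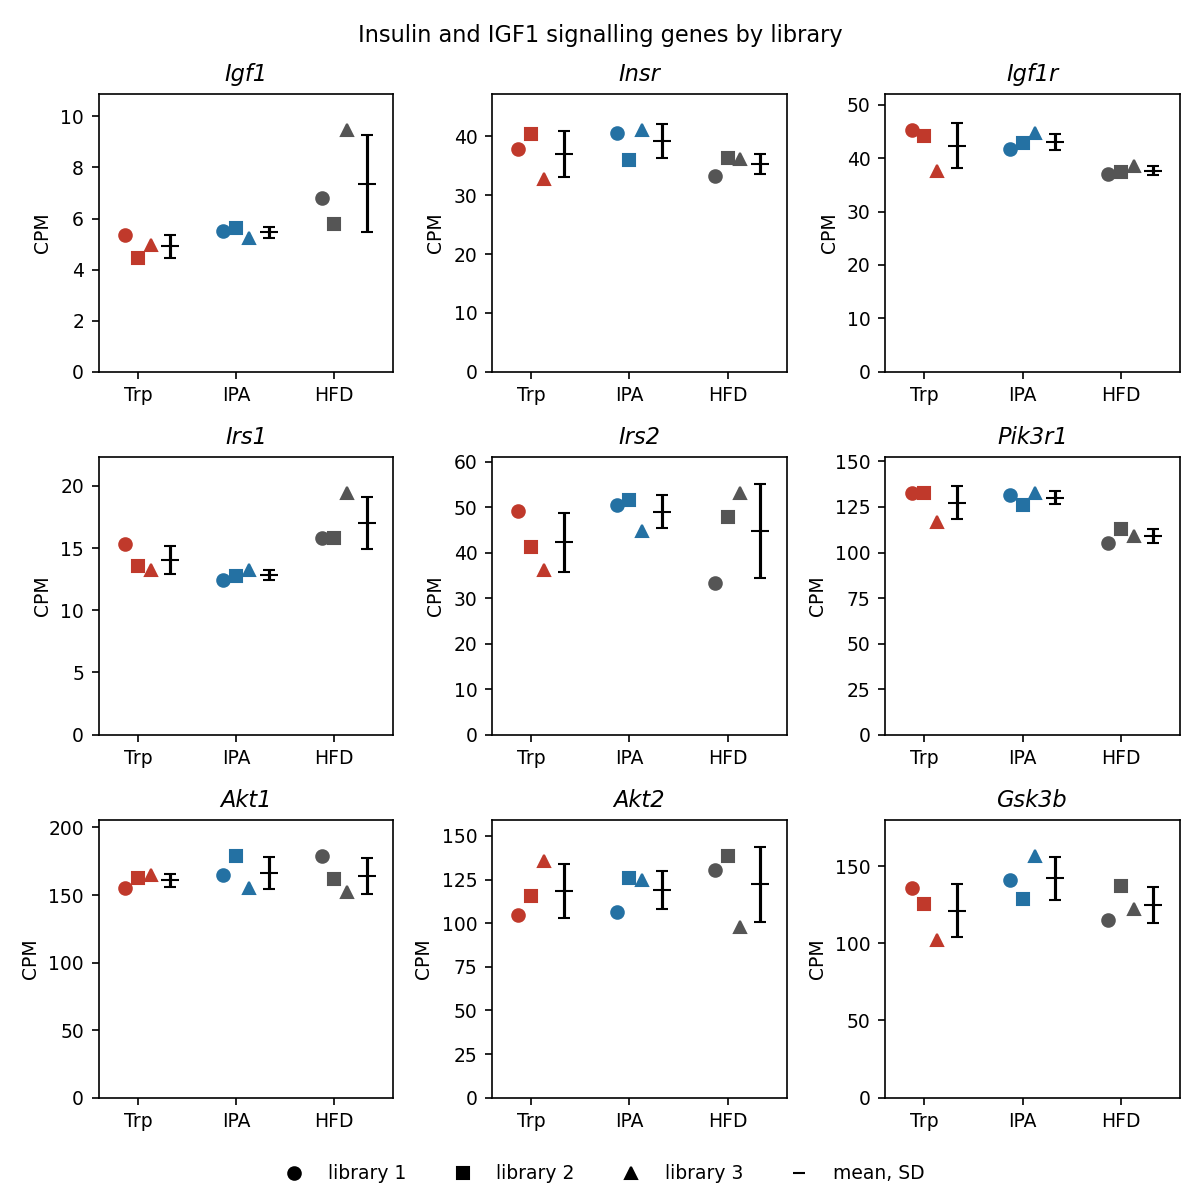
CPM of the 9 genes in each library, 1 panel per gene with its own axis from 0, for the Trp, IPA and HFD groups. Symbols mark libraries 1 to 3 of a group and the black bar the mean with its SD. In the Igf1 and Irs1 panels every Trp and IPA point lies below every HFD point, in the Pik3r1 panel every one lies above, and the highest Igf1 point is HFD 3 at 9.48 CPM.

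The transcripts differed widely in abundance. In FPKM, which divides by gene length and so allows genes to be compared, Akt1 had the highest mean level over the 9 libraries, 55.2 ± 4.02 FPKM (SD, n = 9), followed by Akt2 at 26.5 ± 3.88 FPKM. Pik3r1 had a mean of 16.5 ± 1.68 FPKM and Gsk3b of 14.2 ± 1.51 FPKM. Irs2 averaged 6.47 ± 0.901 FPKM, Insr 3.79 ± 0.689 FPKM and Igf1r 3.26 ± 0.306 FPKM. Irs1, at 1.44 ± 0.205 FPKM, and Igf1, at 0.760 ± 0.177 FPKM, were the lowest. Each gene stood above the next one in this order in 9 of 9 libraries. Across libraries, however, the ranges of Pik3r1 and Gsk3b, of Irs2 and Insr, of Insr and Igf1r, and of Irs1 and Igf1 overlapped. The AKT kinases were thus the most abundant members, and the ligand gene and Irs1 the scarcest.

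**Figure D2:**
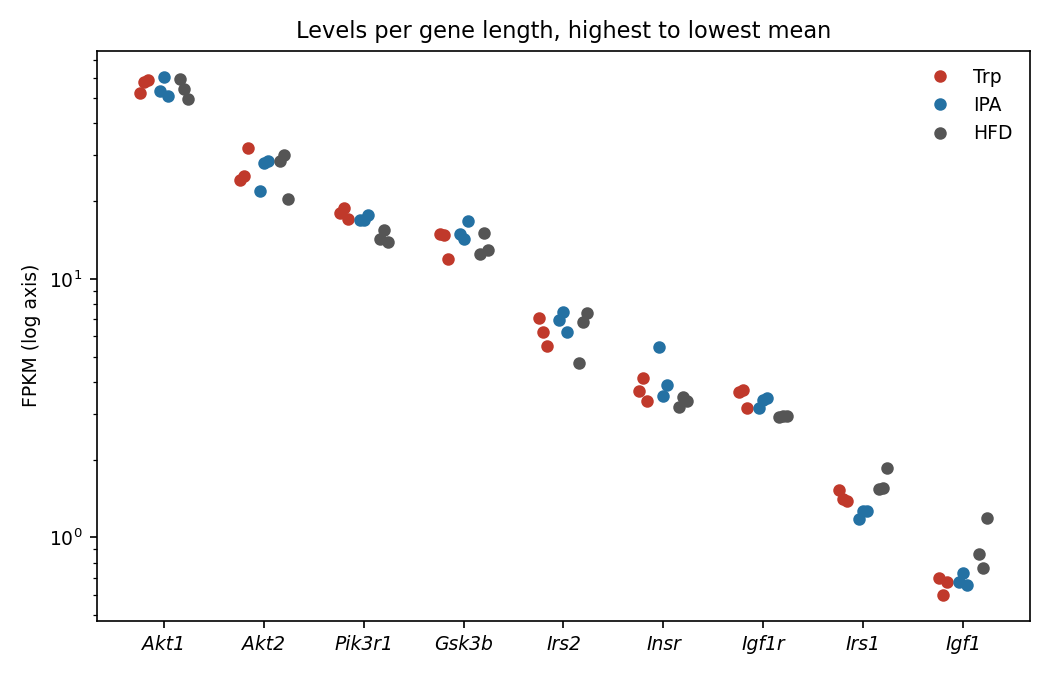
FPKM of each gene in each of the 9 libraries on a log axis, genes from the highest to the lowest mean, points coloured by group (Trp, IPA, HFD). Akt1 lies between 49.6 and 60.5 FPKM and Igf1 between 0.600 and 1.19 FPKM, and the single high Insr point is IPA 1 at 5.46 FPKM.

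Igf1 encodes the ligand IGF1, which the liver releases into blood and which microglia and some neurons also make in the brain. It lies on chromosome 10 at chr10:87858265-87937042 of GRCm38, on the plus strand, and no other annotated gene shares its exons. Its promoter and those of Irs1 and Pik3r1 are shown because these are the members whose Trp and IPA libraries were all on 1 side of the HFD libraries. RefSeq's promoter table for GRCm38.p6 gives 1 start for Igf1, chr10:87860861-87861160 on the plus strand, from 250 bases before the start to 50 after it:

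Igf1 promoter: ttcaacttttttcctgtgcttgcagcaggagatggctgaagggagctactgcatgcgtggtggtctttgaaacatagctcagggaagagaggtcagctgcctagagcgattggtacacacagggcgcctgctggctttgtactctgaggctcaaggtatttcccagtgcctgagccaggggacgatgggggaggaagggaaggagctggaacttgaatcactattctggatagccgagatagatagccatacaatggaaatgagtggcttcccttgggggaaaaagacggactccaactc

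4 motifs were searched on both strands and are written in capitals where found: TATAAA (the TATA box core), GGGCGG (the GC box), GTAAACA (a FOXO core) and TGACGTCA (the cyclic AMP response element). None of the 4 is contained in another. They occur in 13.6%, 35.7%, 3.65% and 1.79% of all 32851 promoters of this length, in that order. None of these strings is in the Igf1 window, whose GC content is 52.3%, beside a median of 52.7% over all promoters. This says only that these letters are absent from this window.

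Igf1 was measured at 5.34, 4.45 and 4.96 CPM in Trp 1 to 3. The IPA libraries 1 to 3 had 5.51, 5.65 and 5.22 CPM, and the HFD libraries 6.81, 5.79 and 9.48 CPM. Neither the Trp nor the IPA values overlapped the HFD values, and HFD 3 was the highest of the 9 while HFD 2 was only just above IPA 2. The group means were 4.92 ± 0.444 CPM in Trp, 5.46 ± 0.215 CPM in IPA and 7.36 ± 1.90 CPM in HFD (SD, n = 3 each). The log2 fold change of Trp over HFD was -0.58 (SE 0.18, 95% interval -0.97 to -0.19, unadjusted p = 0.00698, edgeR adjusted p = 0.251). That of IPA over HFD was -0.43 (SE 0.18, interval -0.82 to -0.04, unadjusted p = 0.0335, adjusted p = 0.455). Without HFD 3 the values were -0.36 for Trp (adjusted p = 0.330) and -0.21 for IPA (adjusted p = 0.593). The 186 to 399 counts per library behind these values are the fewest of any member.

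Markers of several cell types also stood at different levels in the groups, although few passed singly. Against HFD, 4 of 12 microglia markers passed in Trp and 0 in IPA. For oligodendrocytes, blood cells, choroid plexus and striatal neurons, 0 markers passed in Trp or in IPA. Over all tested genes 49.5% had a positive log2 fold change in Trp and 48.9% in IPA. The 10 oligodendrocyte markers summed to 8131 to 9675 CPM in Trp, 8951 to 10615 CPM in IPA and 9332 to 16062 CPM in HFD, with HFD 3 at the top, and 9 of 10 were lower in Trp and 8 of 10 lower in IPA than in HFD. The 12 microglia markers went the other way, at 414 to 533 CPM in Trp, 299 to 316 CPM in IPA and 278 to 302 CPM in HFD. 12 of 12 were higher in Trp and 8 of 12 higher in IPA. Blood cell markers summed to 312 to 460 CPM in Trp, 320 to 472 CPM in IPA and 649 to 2310 CPM in HFD, and all 6 that were tested were lower in both groups. Choroid plexus markers (11 of 11) and striatal markers (12 of 12) were higher in both groups than in HFD by their fold changes, with ranges that overlapped. Every gene on these lists was detected in at least 1 library. The part of these cell types in the values of Igf1 or of the other members was not tested.

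The relatives of the ligand were scarce or uneven. Ins1 had 0 counts in every library, which allows up to 0.0584 to 0.0751 CPM by library (3 counts, counting error only), and Ins2 had 0 to 12 counts, so neither insulin gene was tested. Igf2, a growth factor made mainly by choroid plexus and meninges in the adult brain, varied far more within groups than between them. It stood at 69.1, 40.5 and 18.3 CPM in Trp 1 to 3, 24.2, 60.1 and 40.6 CPM in IPA 1 to 3, and 26.9, 22.8 and 71.5 CPM in HFD 1 to 3. The choroid plexus transcript Ttr was likewise 1288 CPM in Trp 1 and 25.7 CPM in Trp 3. Of the exon bases of Igf2, 62.8% are shared with the gene Gm49394 on the same strand, so its counts are uncertain.

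Insr and Igf1r encode the receptors for insulin and for IGF1. Insr had 37.9, 40.5 and 32.8 CPM in Trp 1 to 3, 40.6, 36.0 and 41.1 CPM in IPA 1 to 3, and 33.3, 36.4 and 36.1 CPM in HFD 1 to 3. The 3 groups overlapped, and Trp 3 was the lowest library. Over HFD, the log2 fold changes were 0.07 for Trp (95% interval -0.15 to 0.29, adjusted p = 0.850) and 0.15 for IPA (interval -0.06 to 0.37, adjusted p = 0.616). In FPKM, IPA 1 stood at 5.46 against 3.19 to 4.14 in the other 8 libraries. That library had 0.135 FPKM per CPM for Insr, against 0.0935 to 0.103 in the others, so the high value is in the authors' FPKM and not in their counts. Its cause was not tested.

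Igf1r had 45.3, 44.2 and 37.5 CPM in Trp 1 to 3, 41.7, 42.9 and 44.7 CPM in IPA 1 to 3, and 37.0, 37.5 and 38.5 CPM in HFD 1 to 3. All IPA libraries were above all HFD libraries, while Trp 3 lay inside the HFD range. The HFD libraries were close together, with a mean of 37.7 ± 0.788 CPM (SD, n = 3). The log2 fold changes over HFD were 0.17 for Trp (95% interval -0.03 to 0.37, adjusted p = 0.525) and 0.19 for IPA (interval -0.0028 to 0.39, adjusted p = 0.481). Without HFD 3 and Trp 3, a setting chosen after seeing the data, the value for Trp was 0.27 (adjusted p = 0.141). Insrr, the insulin receptor-related receptor, had only 3 to 8 counts. Igf2r, which clears IGF2 rather than signalling through PI3-kinase, had log2 fold changes of -0.16 in Trp (adjusted p = 0.677) and -0.11 in IPA (adjusted p = 0.765).

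IRS1 and IRS2 are the adaptors that dock PI3-kinase to the activated receptors. Irs1 lies at chr1:82233101-82291416 of GRCm38 on the minus strand, and 30.9% of its exon bases (2822 bases) are shared with the antisense gene Gm9747. Reads of an antisense pair cannot be told apart unless the counting used strand, which the sources used here do not state, and Gm9747 had 0 counts in every library. The Irs1 promoter (GRCm38.p6, chr1:82291390-82291689, minus strand) has a GC content of 71.3% and holds 2 GC boxes, shown in capitals, at positions -227 and -216 (the start being 0). It is printed, like the others, 5′ to 3′ on the strand of the gene:

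Irs1 promoter: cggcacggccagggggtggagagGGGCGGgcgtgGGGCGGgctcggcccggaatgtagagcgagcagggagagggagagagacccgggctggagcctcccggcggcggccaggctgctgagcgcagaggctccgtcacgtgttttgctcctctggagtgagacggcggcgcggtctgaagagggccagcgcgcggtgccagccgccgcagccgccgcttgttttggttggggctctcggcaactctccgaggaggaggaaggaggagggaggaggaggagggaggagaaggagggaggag

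Irs1 was measured at 15.4, 13.6 and 13.2 CPM in Trp 1 to 3. The IPA libraries 1 to 3 had 12.4, 12.8 and 13.2 CPM, and the HFD libraries 15.8, 15.8 and 19.5 CPM. All Trp and all IPA values were below the HFD values, with Trp 1 closest to them. The 3 IPA values were also below the 3 Trp values, although the nearest pair, Trp 3 and IPA 3, both round to 13.2 CPM. The means were 14.0 ± 1.14 CPM in Trp, 12.8 ± 0.389 CPM in IPA and 17.0 ± 2.102 CPM in HFD (SD, n = 3 each). The log2 fold change over HFD was -0.41 for IPA (SE 0.12, 95% interval -0.66 to -0.16, unadjusted p = 0.00372, edgeR adjusted p = 0.305), the smallest unadjusted p of any member in that comparison. For Trp over HFD it was -0.28 (SE 0.11, interval -0.52 to -0.03, unadjusted p = 0.0320, adjusted p = 0.381). Without HFD 3 these became -0.30 for IPA (adjusted p = 0.257) and -0.17 for Trp (adjusted p = 0.545).

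Irs2 did not follow Irs1. It had 49.3, 41.3 and 36.3 CPM in Trp 1 to 3, 50.5, 51.7 and 44.9 CPM in IPA 1 to 3, and 33.4, 47.9 and 53.2 CPM in HFD 1 to 3, so that HFD 1 was the lowest and HFD 3 the highest of all 9. Against HFD, the log2 fold change was -0.08 for Trp (95% interval -0.44 to 0.27, adjusted p = 0.901) and 0.13 for IPA (interval -0.22 to 0.48, adjusted p = 0.812). The sign of each of these turns when 1 HFD library is left out, at 0.06 for Trp without HFD 3 and -0.04 for IPA without HFD 1. The ratio of Irs2 to Irs1 in FPKM averaged 4.34 ± 0.347 in Trp, 5.55 ± 0.549 in IPA and 3.80 ± 0.670 in HFD (SD, n = 3 each). It was 5.88, 5.85 and 4.91 in IPA 1 to 3, each above all HFD libraries, which had 3.06, 4.37 and 3.96. No test was run on this ratio, since with 3 libraries on each side an exact permutation p is at least 0.1. Exons of Irs2 share 2.56% of their bases with the antisense transcript 9530052E02Rik.

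Pik3r1 encodes p85 alpha, the regulatory subunit that holds PI3-kinase in check and brings it to the IRS adaptors. The gene lies at chr13:101680563-101768217 of GRCm38 on the minus strand. RefSeq gives 2 starts, which the gene counts do not separate. The upstream start (chr13:101768168-101768467) has a GC content of 75.7% with 4 GC boxes. The inner start (chr13:101692581-101692880) has a GC content of 43.7% with 1 TATA box core at position -117. That match is on the strand opposite the gene, so it is printed as TTTATA. Both starts are on the minus strand, with matches in capitals:

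Pik3r1 promoter, upstream start: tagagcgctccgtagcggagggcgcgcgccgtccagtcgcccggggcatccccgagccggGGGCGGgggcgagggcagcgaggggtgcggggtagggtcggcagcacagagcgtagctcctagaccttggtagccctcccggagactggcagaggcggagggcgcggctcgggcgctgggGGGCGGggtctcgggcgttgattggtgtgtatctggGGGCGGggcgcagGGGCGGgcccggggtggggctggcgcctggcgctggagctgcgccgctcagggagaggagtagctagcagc

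Pik3r1 promoter, inner start: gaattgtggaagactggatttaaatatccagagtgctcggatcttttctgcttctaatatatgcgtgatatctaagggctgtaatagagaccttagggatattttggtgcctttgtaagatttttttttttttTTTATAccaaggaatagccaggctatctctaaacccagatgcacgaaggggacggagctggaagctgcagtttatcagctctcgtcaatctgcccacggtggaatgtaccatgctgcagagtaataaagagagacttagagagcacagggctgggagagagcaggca

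Pik3r1 was measured at 132, 133 and 117 CPM in Trp 1 to 3. The IPA libraries 1 to 3 had 132, 126 and 133 CPM, and the HFD libraries 105, 113 and 109 CPM. Every Trp and IPA library was above every HFD library, and Trp 3 was the nearest to them. The means were 127 ± 9.06 CPM in Trp, 130.1 ± 3.41 CPM in IPA and 109 ± 3.60 CPM in HFD (SD, n = 3 each). The log2 fold changes over HFD were 0.22 for Trp (SE 0.08, 95% interval 0.05 to 0.40, unadjusted p = 0.0151, edgeR adjusted p = 0.315) and 0.25 for IPA (SE 0.08, interval 0.08 to 0.43, unadjusted p = 0.00725, adjusted p = 0.338). These did not lean on HFD 3, without which they were 0.22 (adjusted p = 0.234) and 0.25 (adjusted p = 0.218). Without HFD 3 and Trp 3 the value for Trp was 0.28, with the smallest adjusted p of any member under any setting, 0.0848. Pik3r2, which encodes the p85 beta subunit, had log2 fold changes of -0.17 in Trp (adjusted p = 0.652) and -0.05 in IPA (adjusted p = 0.917). The catalytic subunit genes Pik3ca and Pik3cd had values between -0.14 and 0.02 in these comparisons.

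AKT1 and AKT2 are the kinases that PI3-kinase activates, AKT2 being the form most tied to glucose metabolism. Akt1 had 155, 163 and 165 CPM in Trp 1 to 3, 165, 179 and 155 CPM in IPA 1 to 3, and 179, 162 and 152 CPM in HFD 1 to 3. The groups overlapped, and Akt1 had the smallest range of any member over the 9 libraries, 0.24 on the log2 CPM scale. Its log2 fold changes over HFD were -0.03 for Trp (95% interval -0.22 to 0.16, adjusted p = 0.942) and 0.02 for IPA (interval -0.17 to 0.21, adjusted p = 0.960).

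Akt2 had 105, 116 and 135 CPM in Trp 1 to 3, 106, 126 and 125 CPM in IPA 1 to 3, and 130.3, 139 and 97.9 CPM in HFD 1 to 3, with HFD 2 the highest and HFD 3 the lowest of all 9. Its log2 fold change was -0.04 for both Trp (95% interval -0.34 to 0.25, adjusted p = 0.947) and IPA (interval -0.33 to 0.25, adjusted p = 0.942) over HFD. The signs of the Akt1 and Akt2 values turn under several settings. Akt1 was 2.11-fold the level of Akt2 in FPKM in Trp, 2.12-fold in IPA and 2.11-fold in HFD, so this ratio differed between groups by less than its SD of 0.246 to 0.321.

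Gsk3b encodes a kinase that AKT restrains and that phosphorylates glycogen synthase and the microtubule protein tau. It had 136, 125 and 102 CPM in Trp 1 to 3, 141, 129 and 157 CPM in IPA 1 to 3, and 115, 137 and 122 CPM in HFD 1 to 3. The groups overlapped, with IPA 3 at the top and Trp 3 at the bottom. Over HFD, the log2 fold changes were -0.04 for Trp (95% interval -0.29 to 0.21, adjusted p = 0.935) and 0.19 for IPA (interval -0.06 to 0.44, adjusted p = 0.584). For Trp over IPA it was -0.23 (interval -0.48 to 0.02, unadjusted p = 0.0673, adjusted p = 0.987), the smallest p of any member in that comparison. Gsk3a, the related kinase, had a mean of 86.1 FPKM and log2 fold changes of -0.13 in Trp (adjusted p = 0.632) and -0.08 in IPA (adjusted p = 0.782). An antisense transcript, 9130221H12Rik, shares 28.3% of its exon bases.

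Between Trp and IPA the members lay close together. Their 9 log2 fold changes of Trp over IPA ran from -0.23 for Gsk3b to 0.13 for Irs1, and every adjusted p was at least 0.987. The intervals were -0.54 to 0.24 for Igf1, -0.12 to 0.38 for Irs1 and -0.20 to 0.14 for Pik3r1. Each of these intervals includes 0, and differences that lie within them are not excluded by these data. Of the 9 members, 1 (Irs1) had groups that did not overlap, beside 11.2% of all tested genes.

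Read against all genes, non-overlapping groups were common. For Trp against HFD, 1 member was higher and 2 were lower without overlap, beside 8.06% and 7.43% of tested genes. For IPA against HFD, 2 members (Igf1r and Pik3r1) were higher and 2 (Igf1 and Irs1) lower, beside 7.19% and 8.01%. These counts are for CPM. In the authors' FPKM, Igf1r was also above all HFD libraries in each Trp library, with a lowest Trp value of 3.17 against a highest HFD value of 2.95 FPKM. That lowest library, Trp 3, had 0.0845 FPKM per CPM for Igf1r against 0.0764 to 0.0790 in HFD. In CPM Trp 3 lay inside the HFD range. The share of all genes without overlap in FPKM is not given here. Insr in FPKM was above all HFD libraries in each IPA library, with a lowest IPA value of 3.51 against a highest HFD value of 3.498 FPKM. Genes with all 6 Trp and IPA libraries below all HFD libraries made up 3.08% of tested genes, and genes with all 6 above made up 2.72%. The members' median log2 fold change was -0.04 for Trp, 0.13 for IPA and -0.05 for Trp over IPA, beside -0.00, -0.01 and 0.01 over all tested genes. In the authors' deposited table no member had a q under 0.05 either. The smallest q in the authors' deposited table were 0.165 for Irs1 and 0.181 for Pik3r1 in IPA, and 0.213 for Igf1 in Trp.

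**Figure D3:**
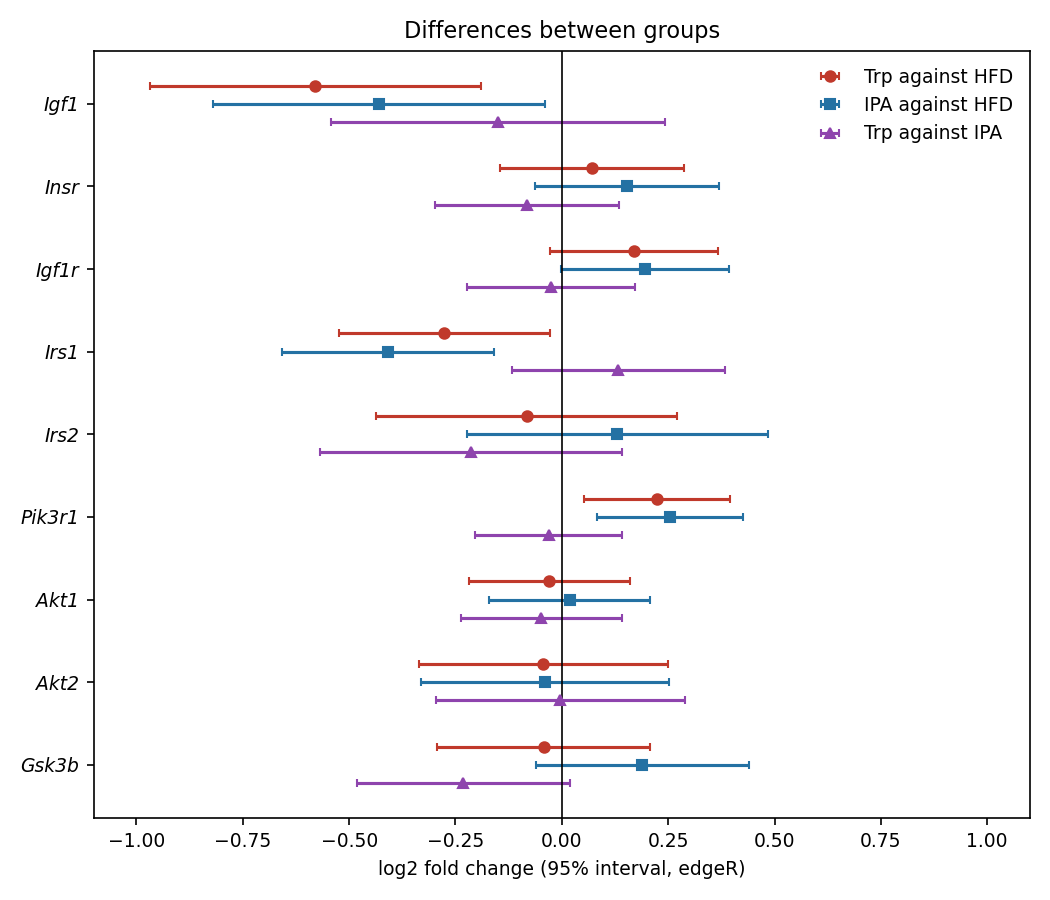
Log2 fold changes of the 9 genes with 95% intervals from edgeR for Trp against HFD (circles), IPA against HFD (squares) and Trp against IPA (triangles). The intervals that leave out 0 are those of Igf1, Irs1 and Pik3r1 against HFD, with Igf1 at -0.58 and -0.43, Irs1 at -0.28 and -0.41 and Pik3r1 at 0.22 and 0.25.

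The rest of the pathway was read from lists of 110 further genes, of which 102 were tested. In edgeR 0 of 102 passed in each comparison. At an unadjusted p under 0.05 there were 17 for Trp against HFD (9 higher, 8 lower), which is 16.7% beside 11.3% of all tested genes. There were 11 for IPA against HFD (7 higher, 4 lower), 10.8% beside 10.4%, and 4 for Trp against IPA (2 higher, 2 lower), 3.92% beside 4.49%. DESeq2 passed 2 of the 102 in Trp, Foxo6 and Sgk3, which is 1.96% beside 1.65% of all tested genes (309 of 18690). It passed 0 of them in the other comparisons, and limma passed 0. Their median log2 fold changes were -0.01, 0.01 and -0.04 in the same order.

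Foxo6, a FOXO factor expressed in hippocampal neurons, had 7.48, 6.08 and 9.69 CPM in Trp 1 to 3, 7.88, 10.01 and 7.94 CPM in IPA 1 to 3, and 12.3, 12.9 and 12.0 CPM in HFD 1 to 3. All Trp and IPA libraries were below the HFD libraries, as they were for 3.08% of all tested genes. The log2 fold changes were -0.67 for Trp (edgeR adjusted p = 0.144, DESeq2 adjusted p = 0.0124) and -0.52 for IPA (edgeR adjusted p = 0.341). Without Trp 3 the edgeR value for Trp was -0.87 and passed (adjusted p = 0.0433), and without Trp 2 it was -0.53 (adjusted p = 0.575). Of the other FOXO factors, Foxo1 had values of 0.08 in Trp (adjusted p = 0.920) and 0.44 in IPA (adjusted p = 0.431), and Foxo3 of -0.12 and -0.00.

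Sgk3, a kinase related to AKT that also needs PI3-kinase, had 48.7, 36.6 and 18.3 CPM in Trp 1 to 3, 27.7, 27.5 and 27.8 CPM in IPA 1 to 3, and 13.4, 16.7 and 17.1 CPM in HFD 1 to 3. Trp 1 was far above and Trp 3 just above the HFD libraries, while the IPA libraries were nearly equal. All Trp and IPA libraries were above the HFD libraries, as they were for 2.72% of all tested genes. The log2 fold changes were 1.13 for Trp (SE 0.30, edgeR adjusted p = 0.234, DESeq2 adjusted p = 0.0473) and 0.81 for IPA (SE 0.30, adjusted p = 0.440). Without Trp 3 the edgeR value for Trp was 1.44 (adjusted p = 0.00271), and without Trp 1 it was 0.80 (adjusted p = 0.360). Pdpk1, which phosphorylates AKT, had 0.05 in Trp and 0.20 in IPA.

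Sgk1, a related kinase that glucocorticoids induce, had 204, 169 and 134 CPM in Trp 1 to 3, 207, 179 and 159 CPM in IPA 1 to 3, and 45.9, 102 and 162 CPM in HFD 1 to 3. HFD 1 was far below the other libraries, and HFD 3 lay inside the range of the Trp and of the IPA libraries. The log2 fold changes were 0.71 in Trp (edgeR adjusted p = 0.604) and 0.82 in IPA (adjusted p = 0.556). Without HFD 3 they were 1.19 (adjusted p = 0.245) and 1.297 (adjusted p = 0.246), and without HFD 1 they were 0.36 (adjusted p = 0.691) and 0.46 (adjusted p = 0.764).

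Targets of FOXO factors were mostly on the positive side in IPA, where 17 of 18 tested genes, Insr and Irs2 among them, had a positive log2 fold change with a median of 0.16 and 0 passed. Over all tested genes in IPA, 48.9% had a positive value and the median was -0.01. In Trp 11 of 18 were positive with a median of 0.01 and 0 passed, beside 49.5% and a median of -0.00 over all tested genes. These are descriptions, and no test of the list was run. Sesn1, a stress-induced inhibitor of mTORC1, had 69.3 ± 7.33 CPM in Trp, 71.3 ± 0.758 CPM in IPA and 57.3 ± 1.39 CPM in HFD (SD, n = 3 each). Its log2 fold changes were 0.27 in Trp (adjusted p = 0.265) and 0.32 in IPA (adjusted p = 0.296). Ddit4, another inhibitor of mTORC1, had 0.36 in Trp (adjusted p = 0.216) and 0.30 in IPA (adjusted p = 0.367), and the edgeR test passed it in Trp without HFD 3 (0.48, adjusted p = 0.0197). Without HFD 1 the edgeR value of Ddit4 in Trp was 0.27 (adjusted p = 0.466). Ccng2, a cyclin, had 0.02 in Trp (adjusted p = 0.963) and 0.23 in IPA (adjusted p = 0.411). Ddit4 and Pdk4 of the FOXO targets, and Sgk1 of the AKT arm kinases, are also on the list of glucocorticoid-induced genes. Pdk4, which restrains pyruvate entry into mitochondria, had 0.55 in Trp (adjusted p = 0.680) and 0.67 in IPA (adjusted p = 0.596), and is named here after its values were seen. Of the 14 genes on the glucocorticoid list, 13 had positive log2 fold changes in Trp and 13 in IPA. In edgeR 2 of the 14 passed in Trp and 0 in IPA, beside 0.342% and 0.00535% of all tested genes. Sgk1, Ddit4 and Pdk4 were not among those that passed. That list summed to 795 to 1089 CPM in Trp, 760 to 913 CPM in IPA and 518 to 782 CPM in HFD, and its part in these values was not tested.

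Slc2a1, the glucose transporter GLUT1 of the blood-brain barrier, had 92.1 to 115 CPM in Trp, 95.2 to 104 CPM in IPA and 61.0 to 91.9 CPM in HFD. All Trp and IPA libraries were above the HFD libraries for Slc2a1, as they were for 2.72% of all tested genes. Its log2 fold changes were 0.43 in Trp (adjusted p = 0.255) and 0.35 in IPA (adjusted p = 0.421), and without HFD 3 that in Trp was 0.56 and passed (adjusted p = 0.0350). Without HFD 1 the edgeR value of Slc2a1 in Trp was 0.28 (adjusted p = 0.490). Of the 11 endothelial markers, which include Slc2a1, 8 were lower in Trp and 9 lower in IPA. Slc2a3, the neuronal transporter GLUT3, had -0.00 in Trp and 0.01 in IPA, and Slc2a8 had -0.07 and -0.09.

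Of the 17 inhibitors of the pathway tested, 0 passed in any comparison. At an unadjusted p under 0.05 there were 5 of 17 for Trp against HFD (1 higher, 4 lower). There were 4 of 17 for IPA against HFD (1 higher, 3 lower) and 2 of 17 for Trp against IPA (1 higher, 1 lower). Over all tested genes these shares were 11.3%, 10.4% and 4.49%, and no test of the list was run. Inpp5k, a phosphatase that removes the lipid product of PI3-kinase, had 30.8 ± 1.95 CPM in Trp, 25.1 ± 0.861 CPM in IPA and 25.3 ± 0.610 CPM in HFD (SD, n = 3 each). Its log2 fold changes were 0.28 for Trp over HFD (adjusted p = 0.247), -0.01 for IPA over HFD (adjusted p = 0.976) and 0.29 for Trp over IPA (adjusted p = 0.987). Socs2, which limits growth hormone and IGF1 signals, had -0.35 in Trp (adjusted p = 0.283) and -0.29 in IPA (adjusted p = 0.449), and Trib2, a pseudokinase that binds AKT, had -0.40 (adjusted p = 0.250) and -0.07 (adjusted p = 0.888).

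Among the 10 IGF-binding proteins and their proteases that were tested, 0 passed. Igfbp4 had 98.5 ± 7.71 CPM in Trp, 82.3 ± 11.5 CPM in IPA and 78.4 ± 13.2 CPM in HFD (SD, n = 3 each), with a log2 fold change of 0.33 for Trp (adjusted p = 0.375). Igfbp3 had 0.23 in Trp (adjusted p = 0.594) and -0.02 in IPA, and Igfbp7 had -0.05 in Trp and -0.23 in IPA (adjusted p = 0.632). Of the 16 receptor adaptors, Irs1 and Irs2 included, Sh2b2 had 0.62 in Trp (adjusted p = 0.316) and 0.29 in IPA (adjusted p = 0.679). Gab1 had -0.36 in Trp (adjusted p = 0.384) and -0.23 in IPA (adjusted p = 0.613), and Sos2 had -0.00 and 0.24. In the RAS-ERK arm, the growth branch of the pathway, 0 of 10 passed, and Nras had -0.32 in Trp (adjusted p = 0.339). The kinase genes Map2k1 and Map2k2 had values between -0.19 and 0.08 against HFD.

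**Figure D4:**
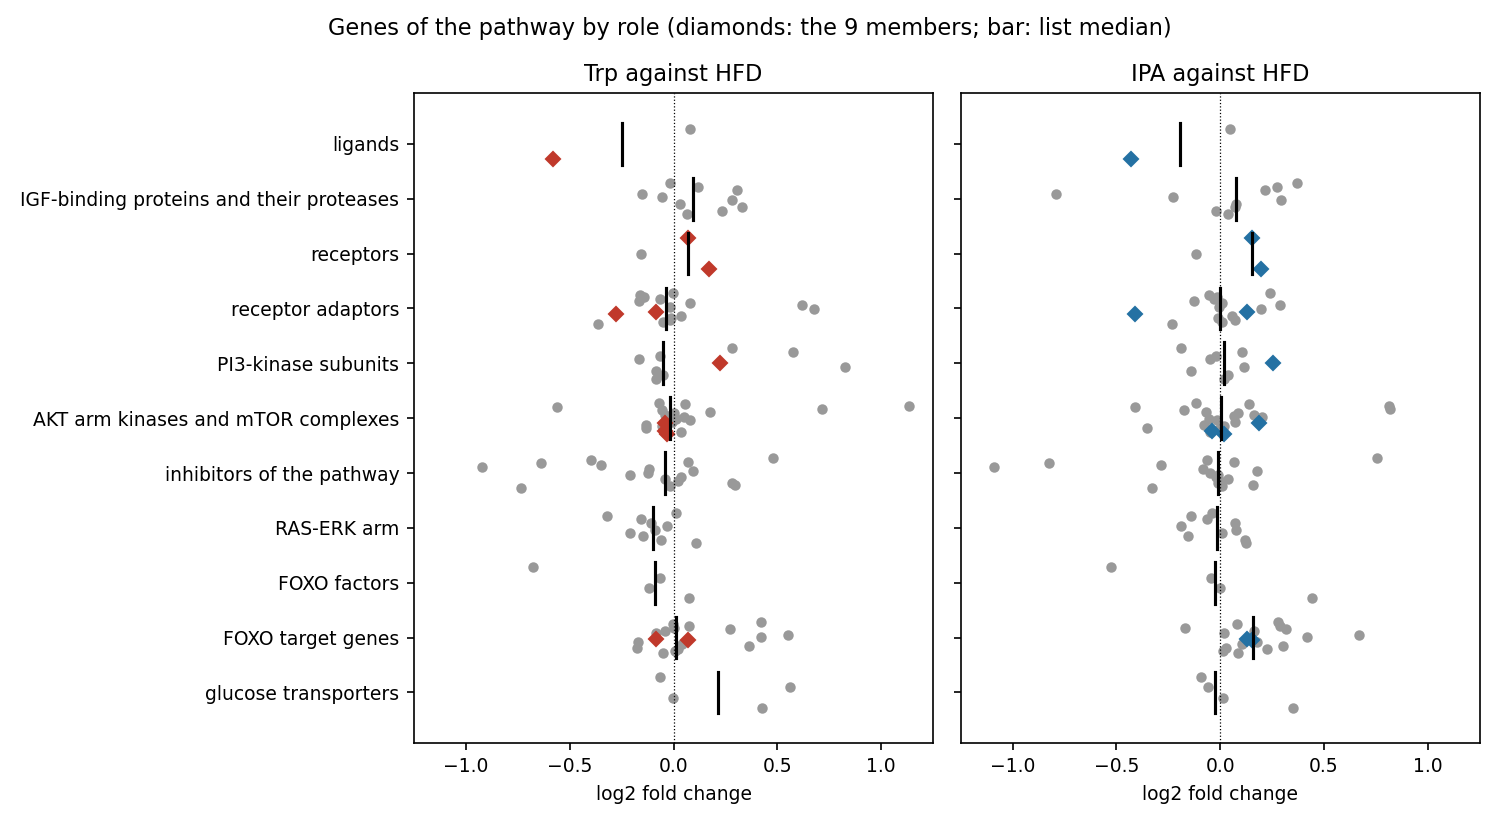
Log2 fold changes of the tested genes of the pathway by role for Trp against HFD (left) and IPA against HFD (right), each point a gene, coloured diamonds the 9 members (Insr and Irs2 are also FOXO targets) and black bars the list medians with those genes included. Sgk3 is the point farthest to the right in Trp, at 1.13, and lies at 0.81 in IPA, Foxo6 lies at -0.67 in Trp, and 17 of 18 FOXO targets lie right of 0 in IPA.

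Over the 9 libraries Igf1 had the widest range of the members, 1.08 on the log2 CPM scale, followed by Irs2 (0.67) and Irs1 (0.64). HFD 3 was the highest library for each of them. It had 9.48 CPM against at most 6.81 elsewhere for Igf1, 53.2 against 51.7 for Irs2 and 19.5 against 15.8 for Irs1. The ranking of these members without HFD 3 is not given here. For these 3 the closest patterns were sought among 15054 tested genes by the root mean square difference of log2 CPM, each gene centred on its mean. For Igf1 they were Sema6a (0.0940), Pdlim2 (0.101) and Mbp (0.102), which encode a transmembrane semaphorin, a PDZ and LIM domain protein and myelin basic protein, beside a spread of Igf1 about its own mean of 0.295. For Irs2 they were Rpe (0.0901), Pals1 (0.0920) and Tiparp (0.0947), beside a spread of 0.223. For Irs1 they were Zfp36l1 (0.0719), Tmem200a (0.0744) and Tagln2 (0.0874), beside a spread of 0.195. The 9 points behind each of these values share their libraries and depth. HFD 3 was also the highest of the 9 libraries for each gene matched to Igf1 or to Irs1. It had 33.5 CPM for Sema6a, 33.3 CPM for Pdlim2 and 7356 CPM for Mbp. The other libraries had at most 23.1, 25.3 and 5049 CPM, in that order. The part of HFD 3 in these matches was not tested.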

How the data were processed

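The authors deposited counts per gene and library, which are whole numbers, and FPKM, fragments divided by gene length and library size, per the file headers. The authors also deposited log2 fold changes, p-values and q-values for Trp and for IPA against HFD. StringTie 2.1.3b and the build mm10 are named per the submitters' processing notes. The aligner, counting tool, strand use and test were not given in the sources used here. Gene starts in the table differ from GENCODE M21 (GRCm38) for all 9 members, so coordinates are those of GENCODE and RefSeq. 0 library columns were left without a sample.

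Counts were fitted in R 4.3.3 with edgeR 4.0.16 (filterByExpr, minimum count 10, TMM, robust quasi-likelihood) over all 9 libraries, with group as the one factor and Benjamini-Hochberg adjustment over 18690 genes. The procedure was tested on simulated data. CPM are TMM-scaled, and log2 CPM used a prior count of 2. Alternatives used DESeq2 1.42.0 and limma 3.58.1 on log2 FPKM with pseudocounts 0.5, 0.1 and 1. For limma, genes with FPKM of at least 1 in 3 libraries were kept, which left out Igf1. Other alternatives changed the scaling, the filter, the libraries or the block.

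Members and lists were chosen with earlier results of these data known. Further pathway genes named are, per list, up to 3 with the smallest unadjusted p in any comparison and a mean FPKM of at least 1, and close relatives of the members; 1 gene that this rule names is not reported here. Each group has 3 mice, as the series states. Figures used Python 3.11.15 and matplotlib 3.10.9.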

Additional observations from a re-analysis of the deposited data

How the results depend on the processing

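Of the 9 members, 0 passed in each comparison under each of the 20 alternatives. Of 519 log2 fold changes recomputed, 464 kept their direction and 55 reversed. Of the reversed ones, 54 had a value under 0.1 in size in the main edgeR fit. Igf1, Irs1, Pik3r1, Igf1r and Insr kept their direction against HFD wherever they were fitted. For Trp against HFD, limma on log2 FPKM with pseudocounts 0.5, 0.1 and 1 gave 0.011, 0.013 and 0.0088 for Irs2, 0.053, 0.053 and 0.052 for Akt1, 0.043, 0.044 and 0.042 for Akt2 and 0.034, 0.035 and 0.033 for Gsk3b. Without HFD 3 and Trp 3, Irs2 was 0.16 and Gsk3b 0.051. For IPA against HFD, Akt1 was -0.0019 with upper quartile scaling and -0.034 without HFD 3 and Trp 3. For Trp against IPA, Akt2 was 0.016 with upper quartile scaling, 0.0088 with no filter on low counts and 0.0044 with a mean FPKM of at least 5. In the same comparison limma gave 0.062, 0.068 and 0.055 for Igf1r, 0.059, 0.061 and 0.058 for Pik3r1, 0.042, 0.043 and 0.042 for Akt1 and 0.044, 0.045 and 0.043 for Akt2. Without HFD 3 and Trp 3, Igf1r was 0.055 and Pik3r1 0.028. Leaving out 1 library gave for Trp against HFD -0.26 to 0.059 for Irs2, -0.082 to 0.035 for Akt1, -0.18 to 0.057 for Akt2 and -0.13 to 0.066 for Gsk3b. For IPA against HFD it gave -0.043 to 0.27 for Irs2, -0.037 to 0.083 for Akt1 and -0.18 to 0.060 for Akt2. For Trp against IPA it gave -0.079 to 0.053 for Igf1r, -0.064 to 0.025 for Pik3r1, -0.095 to 0.0080 for Akt1 and -0.11 to 0.076 for Akt2. Under limma on log2 FPKM the median log2 fold change over all genes was 0.069 to 0.079 for Trp against HFD. For Trp against IPA it was 0.074 to 0.086. The limma values printed here for the members are positive but lie below these medians. The cause of the reversals was not tested.

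Counts over all genes moved more. For Trp against HFD the 64 genes became 309 with DESeq2, 97 with no filter, 30 with a mean FPKM of at least 5, 8 with only the 6 libraries compared, 775 without HFD 3 and Trp 3, and 13 to 323 with 1 library left out. The 0 pathway genes became 2 with DESeq2, 9 without HFD 3 and Trp 3, and 0 to 2 with 1 library left out. For IPA against HFD the 1 gene became 168 with DESeq2, 6 with no filter, 0 with a mean FPKM of at least 5, 2 with only 6 libraries, 247 without HFD 3 and Trp 3, and 0 to 52 with 1 library left out, and the pathway genes became 3 without HFD 3 and Trp 3. For Trp against IPA the 0 genes became 15 with DESeq2, 3 with no filter, 2 with limma at each pseudocount, 2 without HFD 3 and Trp 3, and 0 to 1 with 1 library left out. A mean FPKM of at least 5 kept 5 members and left out Igf1, Insr, Igf1r and Irs1.

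With the replicate number as a block, 23 genes passed for Trp against HFD, 0 for IPA against HFD and 0 of 9 members in any comparison. The numbers are not shown to pair the libraries: deviations of same-numbered libraries correlated at -0.196 to 0.0479, those of other pairs at -0.145 to 0.256, and 1 of 9 libraries correlated best with its own number. Depth limits Igf1 most, at 186 to 399 counts per library.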

Other observations

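Without HFD 3 and Trp 3, a setting chosen after seeing the data, 9 of the 103 other pathway genes tested (8.74%) passed for Trp against HFD, beside 775 of 18969 tested genes (4.09%). The 6 higher ones were Sgk3 (log2 fold change 1.502, edgeR adjusted p = 7.67e-05), Slc2a1 (0.65, adjusted p = 0.00705), Ddit4 (0.51, adjusted p = 0.00932), Klf15, a glucocorticoid-induced transcription factor (0.81, adjusted p = 0.0142), Txnip, which limits glucose uptake (0.83, adjusted p = 0.0350), and Sesn1 (0.35, adjusted p = 0.0387). The 3 lower ones were Foxo6 (-0.89, adjusted p = 0.00841), the RAS gene Hras (-0.47, adjusted p = 0.0118) and Ptprf, a receptor tyrosine phosphatase (-0.38, adjusted p = 0.0350). For IPA against HFD, Sgk3 (0.88, adjusted p = 0.00706), Slc2a1 (0.49, adjusted p = 0.0423) and Ddit4 (0.42, adjusted p = 0.0359) passed in the same setting, which is 3 of 103 (2.91%) beside 247 of all genes (1.3%). Both libraries were left out after the data were seen, so these calls describe the remaining 7 libraries and are no independent support. On the first principal component HFD 3 stood apart at -58.3, but Trp 3, at 7.21, did not. Trp 3 was the Trp library nearest to the HFD libraries for Sgk3, Slc2a1, Ddit4, Sesn1 and Foxo6, so leaving it out widens these differences.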
